A study of Mus musculus with 36 samples.

Results

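The 8 genes of the bone-forming cell described here are 5 transcription factors of the osteoblast lineage (*Runx2*, *Sp7*, *Dlx3*, *Dlx5* and *Msx2*) and the 3 genes of the mouse osteocalcin cluster (*Bglap*, *Bglap2* and *Bglap3*), out of 56246 genes with a transcript level in the tibia. They were taken by gene symbol, from a list chosen with earlier results of these data known. Bulk RNA came from 36 tibiae. They were those of wild-type mice (n = 12), of *LMNA* G/G mice given saline (n = 12) and of *LMNA* G/G mice given ABE (n = 12), each group being 6 males with 6 females. *LMNA* G/G mice are C57BL/6J mice that carry both copies of a human BAC (bacterial artificial chromosome) transgene with the *LMNA* variant that causes Hutchinson-Gilford progeria syndrome, and keep their own mouse *Lmna*. They were injected retro-orbitally at P14, 14 days after birth, with saline or with AAV9 vectors that carry ABE, an adenine base editor that rewrites the variant in the transgene of the cells it reaches. The wild-type mice have no transgene and were not treated, and all mice were 6 months old at collection. Epiphyses and marrow had been removed, so that mostly cortical bone was sampled, with whatever marrow and muscle remained.

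Levels are scaled TPM, the authors' TPM (transcript abundance relative to the sum of a library) divided by a median ratio factor for each library, which makes the bulk of genes comparable between libraries. Between 48064068 and 116206662 reads per library lay on genes. The ABE-treated female F109436 stands apart with a factor of 0.217 against a median of 1.05, and 96.6% of its TPM lay in the shortest genes, against a median of 88.4%. Wild-type mice have mouse numbers in a series of their own, so a batch of mice cannot be told apart from genotype. Of 9 osteoblast markers, all were found above 0.05 scaled TPM in each group, and their summed level ranged from 823 to 3388 in wild-type mice, from 589 to 2755 with saline and from 911 to 2681 with ABE. In bulk bone, fewer cells of a type and less RNA per cell cannot be told apart.

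*Runx2* is the factor without which osteoblasts do not form, and *Sp7* (osterix) acts after it in the same lineage. *Dlx3* and *Dlx5* are distal-less homeobox factors that promote osteoblast maturation, and *Msx2* is a homeobox factor of early skeletal progenitors that can oppose them. Osteocalcin is a small protein that mature osteoblasts secrete. It binds mineral once vitamin K dependent carboxylation has modified it. In mice it is encoded by *Bglap* and *Bglap2*, which lie in tandem with *Bglap3*, a related gene known mainly for expression outside bone.

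On GRCm38, the 3 osteocalcin genes occupy 15.8 kb of the minus strand of chromosome 3, at chr3:88368616-88372743 (*Bglap3*), chr3:88377736-88378699 (*Bglap2*) and chr3:88383501-88384464 (*Bglap*). The gene Paqr6 lies 0.074 kb from *Bglap3* on the other strand. Mouse *Lmna* lies 95.7 kb beyond *Bglap* on the same strand, at chr3:88480147-88509956. The factors are unlinked to the cluster and to each other, with *Runx2* at chr17:44495987-44814797, *Sp7* at chr15:102356606-102367182, *Dlx3* at chr11:95120119-95125296, *Dlx5* at chr6:6877805-6882085 and *Msx2* at chr13:53466884-53473074. How far the 3 osteocalcin values are separate measurements depends on how far their mRNAs differ. Their coding sequences from the GENCODE vM21 transcripts are therefore printed here 5′ to 3′, without introns, with bases that differ from *Bglap* in capitals.
*Bglap*: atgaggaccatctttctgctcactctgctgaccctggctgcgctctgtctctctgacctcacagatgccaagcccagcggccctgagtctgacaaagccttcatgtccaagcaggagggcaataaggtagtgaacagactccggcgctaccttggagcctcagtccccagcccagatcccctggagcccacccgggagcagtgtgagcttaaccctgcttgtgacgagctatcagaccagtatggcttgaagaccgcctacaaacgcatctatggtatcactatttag
*Bglap2*: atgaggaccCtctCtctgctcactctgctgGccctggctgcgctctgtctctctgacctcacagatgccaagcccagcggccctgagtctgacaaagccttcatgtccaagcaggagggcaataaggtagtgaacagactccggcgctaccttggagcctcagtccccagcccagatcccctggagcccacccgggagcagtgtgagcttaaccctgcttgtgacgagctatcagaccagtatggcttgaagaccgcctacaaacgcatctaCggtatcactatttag
*Bglap3*: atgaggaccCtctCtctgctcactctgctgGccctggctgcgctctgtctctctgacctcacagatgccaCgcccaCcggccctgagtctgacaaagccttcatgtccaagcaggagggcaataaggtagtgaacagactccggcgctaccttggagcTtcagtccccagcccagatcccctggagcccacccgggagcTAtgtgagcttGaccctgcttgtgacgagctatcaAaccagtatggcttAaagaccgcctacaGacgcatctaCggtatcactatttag
Each coding sequence has 288 bases. *Bglap2* differed from *Bglap* at 4 of them (98.6% identity) and *Bglap3* from *Bglap* at 13 (95.5% identity). Of the windows of the *Bglap* transcript as long as 1 read, 31.4% also occurred in the *Bglap2* transcript, with an identical run of 241 bases. No such window was shared by *Bglap3* with *Bglap* or with *Bglap2*, although identical runs of 81 and 119 bases were. Of the *Bglap2* windows, 28.3% occurred in the *Bglap* transcript. Levels of *Bglap* and *Bglap2* are uncertain to an extent not known, since the sources used here do not say how reads that match both genes were counted. Reads were paired, so the share of single windows is not that extent.

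Promoters were read for the genes that have an entry in the RefSeq promoter table (GRCm38.p6), which held 4 of the 8 genes. The 250 bases before the start of *Bglap*, the gene whose level is compared with the factors, and of *Runx2* are printed with matches in capitals, because these factors bind DNA at short motifs.
*Bglap*, chr3:88384467-88384716, minus strand: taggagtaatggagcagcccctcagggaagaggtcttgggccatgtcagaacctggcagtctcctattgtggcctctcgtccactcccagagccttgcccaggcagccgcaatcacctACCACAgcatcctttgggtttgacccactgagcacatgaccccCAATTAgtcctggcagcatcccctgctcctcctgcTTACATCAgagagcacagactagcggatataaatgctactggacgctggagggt
*Runx2*, chr17:44814628-44814877, minus strand: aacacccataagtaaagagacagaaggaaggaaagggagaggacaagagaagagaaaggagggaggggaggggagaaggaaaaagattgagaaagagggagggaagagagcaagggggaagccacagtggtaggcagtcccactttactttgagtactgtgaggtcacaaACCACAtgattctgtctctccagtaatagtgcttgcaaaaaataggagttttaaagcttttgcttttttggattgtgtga
Capitals mark the RUNX core TGTGGT, which reads ACCACA on the opposite strand. They also mark the homeobox core TAATTA, a variant of that core with the letters TAATTG that reads CAATTA on the opposite strand, and an element named OSE1 with the letters TTACATCA. Both strands were searched. In *Bglap*, ACCACA began 132 bases, CAATTA 89 bases and TTACATCA 54 bases before the start, and none overlapped another. *Runx2* held ACCACA 80 bases before its RefSeq start. That start differs from the end of the GENCODE span given above, and the *Runx2* window lies partly inside that span. Over 32851 promoter windows of the same length, 14% held the RUNX core, 4.84% TAATTA, 7.17% TAATTG and 0.965% TTACATCA. Such matches describe letters, and binding was not measured.

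The 8 genes spanned a wide range of levels per length. *Bglap* and *Bglap2* had mean levels of 168 and 127 scaled TPM over the 36 libraries, higher than 99.5% and 99.4% of all genes. The factors lay far below, with means of 7.33 for *Sp7*, 4.33 for *Runx2*, 2.86 for *Dlx3* and 2.65 for *Dlx5*. *Bglap3* and *Msx2* were near the floor, with means of 0.0851 and 0.0227 scaled TPM, which rest on 10 to 107 and 7 to 88 reads per library. Their counting error is large, and they fall under the minimum mean of 0.5 scaled TPM for the main test, so that 6 of the 8 genes were tested there. For these genes, limma-voom on reads recovered from the TPM was used instead. Within a library *Bglap* exceeded *Bglap2* by a median factor of 1.41 in wild-type mice, 1.37 with saline and 1.23 with ABE, a factor that also depends on the lengths of 618 and 471 bp given for them.

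**Figure D1:**
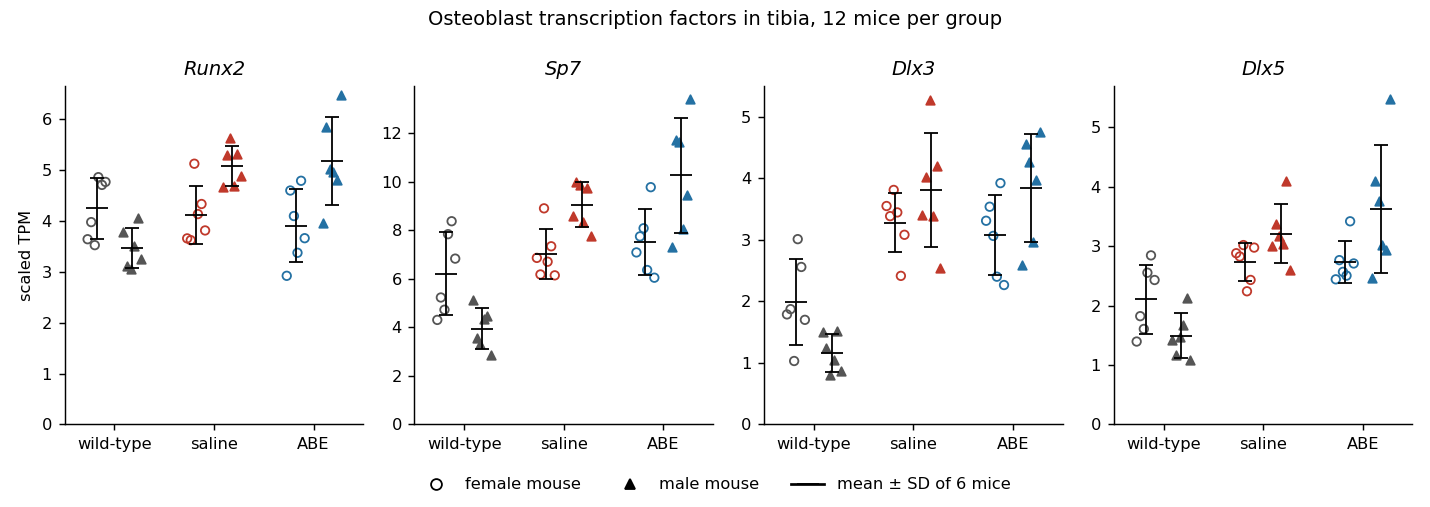
Scaled TPM of the 4 factors with a mean above 0.5, 1 point per mouse, by group (x axis) and sex (open circles female, filled triangles male), with mean ± SD of 6 mice. For *Dlx3*, 10 of 12 saline-treated mice lie above the highest wild-type mouse, and wild-type males have the lowest mean in all 4 panels.

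The first comparison sets *LMNA* G/G mice given saline beside untreated wild-type mice, so that the transgene and the injection cannot be told apart. All 4 tested factors rose, with *Dlx3* changing most, and neither tested osteocalcin gene passed the threshold. Thus 4 of the 6 tested genes were called higher, where 27.7% of all 15933 genes tested were called higher and 52.4% were called in either direction. Differences are log2 fold changes of scaled TPM + 0.5 from limma, with sex as a covariate and p-values adjusted over all genes by Benjamini-Hochberg. The median log2 fold change of all genes was 0.018.

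*Dlx3* ranged from 0.808 to 3.01 (median 1.51) scaled TPM in wild-type and from 2.41 to 5.28 (median 3.43) in saline-treated mice. All 12 saline-treated mice exceeded the wild-type median and 10 exceeded the highest wild-type mouse, a female. The difference was 1.0 ± 0.141 (SE) on the log2 scale, with a limma adjusted p of 5.71e-07, and 2.86% of genes had a larger one. It passed the threshold under every alternative in which *Dlx3* was tested, in each sex included. *Sp7* ranged from 2.85 to 8.37 (median 4.59) in wild-type and from 6.14 to 9.97 (median 8.06) in saline-treated mice. The groups overlapped, but 9 of 12 wild-type mice lay below the lowest saline-treated mouse. Its difference was 0.65 ± 0.142 (SE), limma adjusted p = 0.000276. *Dlx5* ranged from 1.09 to 2.84 (median 1.64) in wild-type and from 2.24 to 4.09 (median 2.99) in saline-treated mice. Of the 12 saline-treated mice, 8 were above every wild-type mouse, a difference of 0.62 ± 0.118 (SE), limma adjusted p = 5.33e-05.

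*Runx2*, the master factor, differed least. It ranged from 3.06 to 4.86 (median 3.71) scaled TPM in wild-type and from 3.62 to 5.64 (median 4.67) in saline-treated mice, and the groups overlapped over most of that range. The difference of 0.23 ± 0.0929 (SE) had a limma adjusted p of 0.0386. That call was lost when any of 11 of the 36 libraries was left out (adjusted p up to 0.0770), and under 7 other settings, with adjusted p between 0.0606 and 0.850, among them quantile normalization (0.168) and TPM as deposited (0.840). *Msx2* ranged from 0.00666 to 0.0441 in wild-type and from 0.0142 to 0.114 in saline-treated mice, the highest being the female F109466. By limma-voom it was higher by 0.63 ± 0.269 (SE) with an adjusted p of 0.0450, where 27.9% of the 22955 genes tested on reads were called higher. That call was lost in 12 of 36 fits that left out a library (adjusted p up to 0.106), with a difference of 0.45 without F109466. It was also lost under each of the 4 other settings tried (adjusted p from 0.0621 to 0.298).

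When ABE-treated mice were set beside wild-type mice the same factors apart from *Runx2* were called, in a comparison that shares its wild-type mice with the first one. Of the 6 tested genes 3 were called higher, against 35.0% of all genes called higher and 70.2% called in either direction. *Dlx3* ranged from 2.27 to 4.75 (median 3.42) scaled TPM in ABE-treated mice and was higher by 0.97 ± 0.141 (SE), limma adjusted p = 4.50e-07. *Sp7* ranged from 6.04 to 13.4 (median 8.07), and 5 mice exceeded the highest wild-type mouse. It was higher by 0.77 ± 0.142 (SE), limma adjusted p = 1.48e-05. *Dlx5* ranged from 2.44 to 5.47 (median 2.85) and was higher by 0.68 ± 0.118 (SE), limma adjusted p = 5.89e-06. All 12 ABE-treated mice lay above the wild-type median for each of these 3 factors. *Runx2* ranged from 2.92 in F109436 to 6.47 in the male M509459, with a difference of 0.20 ± 0.0929 (SE) that did not pass (limma adjusted p = 0.0566). *Msx2* differed by 0.41 ± 0.280 (SE), limma-voom adjusted p = 0.187. On TPM as deposited, where the median of all genes moved to -0.42, only *Dlx3* was called and the *Runx2* difference turned to -0.29.

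**Figure D2:**
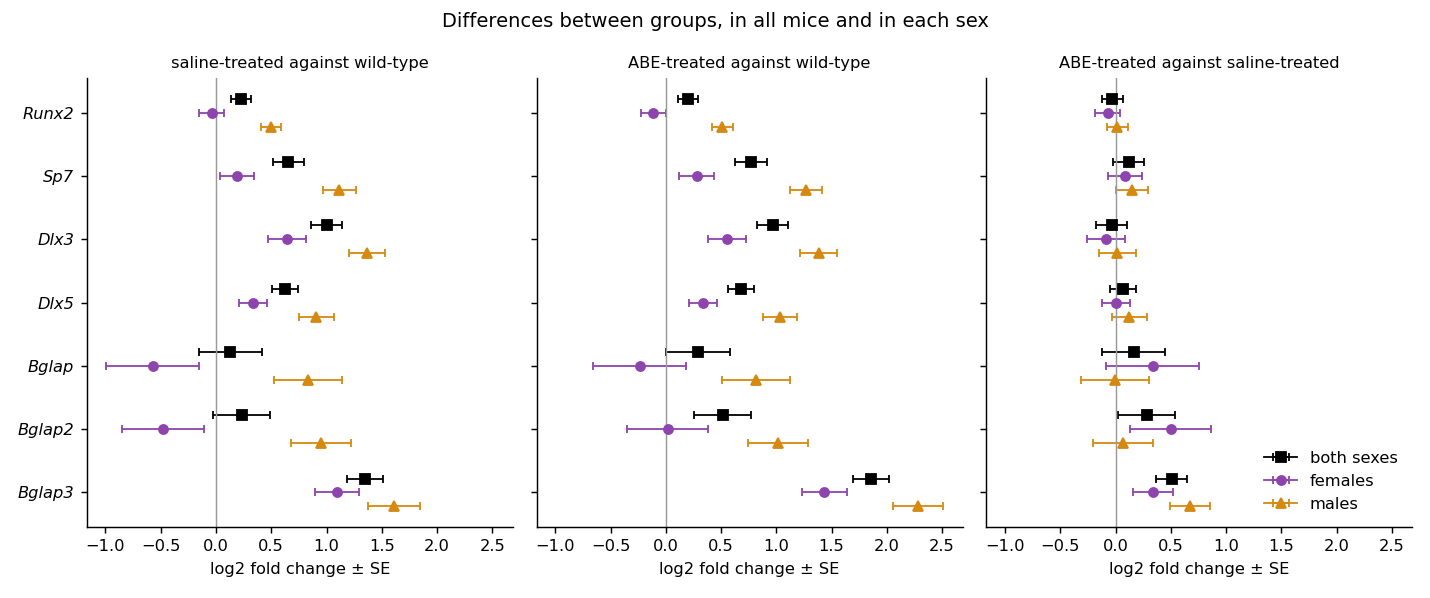
Log2 fold change ± SE of 7 genes (*Bglap3* by limma-voom on recovered reads, the others by limma on scaled TPM + 0.5) in each comparison, for both sexes together (12 mice per group, black squares) and for females (purple circles) and males (orange triangles) fitted alone with 6 mice per group. Male values lie to the right of female values for every gene in both comparisons with wild-type.

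ABE against saline compares *LMNA* G/G mice given vectors that carry the editor with those given saline. The vectors, the editor and the correction of the transgene therefore cannot be told apart. The paper reports that only part of the transgene copies in bone was corrected. Among the 6 tested genes 0 were called by limma (0 at an unadjusted p under 0.05), where 48.3% of all genes were called. The interaction with sex was called for 0 of the 6 as well, where 0.0565% of all genes were. Intervals were narrow for the factors. The 95% interval of the log2 difference ran from -0.22 to 0.16 for *Runx2*, from -0.17 to 0.41 for *Sp7*, from -0.32 to 0.25 for *Dlx3* and from -0.18 to 0.30 for *Dlx5*, so shifts of the size seen against wild-type for *Dlx3* lie outside its interval. They were wide for osteocalcin, from -0.42 to 0.75 for *Bglap* and from -0.25 to 0.81 for *Bglap2*. Such intervals bound a difference and do not show that the groups are alike.

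Osteocalcin itself varied more among mice of a group than between groups. *Bglap* ranged from 62.4 to 319 (median 124) scaled TPM in wild-type, from 40.0 to 329 (median 173) in saline-treated and from 93.3 to 259 (median 165) in ABE-treated mice. The 3 ranges overlap almost wholly, with the lowest value in the saline-treated female F409439 and the highest in the saline-treated male M209511. The log2 difference from wild-type was 0.13 ± 0.286 (SE) in saline-treated (limma adjusted p = 0.728) and 0.29 ± 0.286 (SE) in ABE-treated mice (limma adjusted p = 0.370), and both turned negative on TPM as deposited, to -0.067 and -0.29. *Bglap2* ranged from 46.3 to 236 (median 86.8), from 34.5 to 241 (median 125) and from 93.3 to 210 (median 142). It differed from wild-type by 0.23 ± 0.259 (SE) in saline-treated (limma adjusted p = 0.462) and by 0.51 ± 0.259 (SE) in ABE-treated mice (limma adjusted p = 0.0753). All 12 ABE-treated mice were above the wild-type median of *Bglap2*, and 8 wild-type mice were below the lowest of them.

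**Figure D3:**
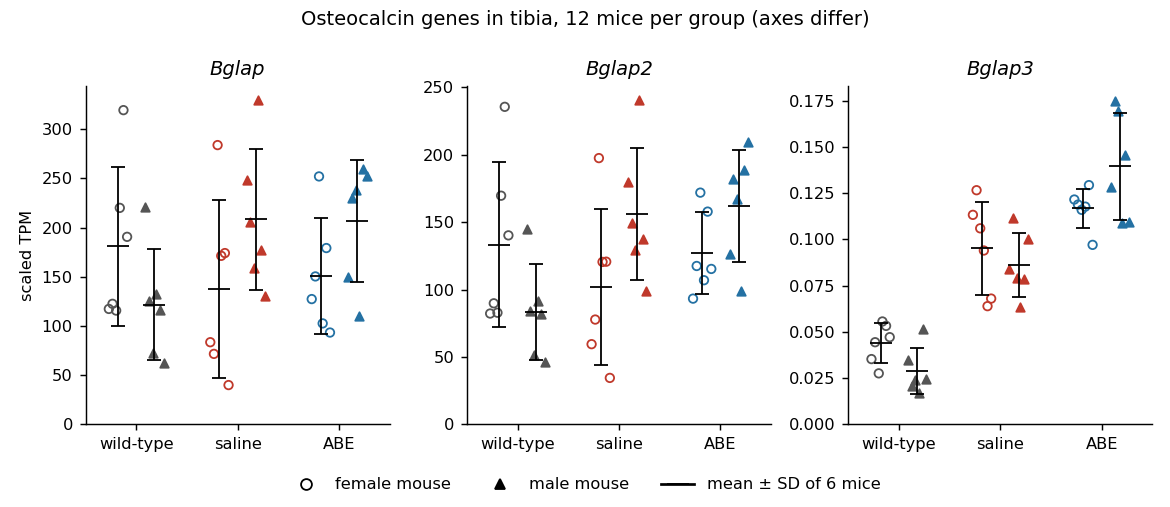
Scaled TPM of *Bglap*, *Bglap2* and *Bglap3*, 1 point per mouse, by group and sex, with mean ± SD of 6 mice and a separate linear axis from 0 for each gene. *Bglap* and *Bglap2* overlap between groups, while every *LMNA* G/G mouse lies above every wild-type mouse for *Bglap3*, at levels far lower.

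*Bglap3*, the third gene of the cluster, rose in both *LMNA* G/G groups at its low level. It ranged from 0.0171 to 0.0556 (median 0.0352) scaled TPM in wild-type, from 0.0632 to 0.127 (median 0.0889) in saline-treated and from 0.0971 to 0.175 (median 0.120) in ABE-treated mice. Neither *LMNA* G/G group overlapped wild-type. Among the 22955 genes tested on reads, 2.78% were higher without overlap with saline and 4.08% with ABE. Libraries held 10 to 37 reads of it in wild-type mice, 45 to 101 with saline and 48 to 107 with ABE. By limma-voom *Bglap3* rose by 1.35 ± 0.162 (SE) in saline-treated (adjusted p = 2.28e-08, 2.55-fold) and by 1.86 ± 0.162 (SE) in ABE-treated mice (adjusted p = 2.33e-11, 3.62-fold), where 27.9% and 36.4% of genes were called higher. ABE-treated mice were also higher than saline-treated mice, by 0.51 ± 0.142 (SE) (adjusted p = 0.00505), where 23.9% of genes were called higher, although the groups overlapped and 5 ABE-treated mice exceeded the highest saline-treated one. All 3 calls held whichever library was left out, but the last was not called in females alone (0.34, adjusted p = 0.154). The median ratio of *Bglap* to *Bglap3* within a library was 3996 in wild-type mice, 1925 with saline and 1291 with ABE.

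Estimated differences from wild-type were larger in males than in females for the 6 tested genes and *Bglap3*. In males alone, 6 of the 6 tested genes were called higher with saline and 6 with ABE, where 28.6% and 31.5% of all genes were. In females alone, 1 (*Dlx3*) and 2 (*Dlx3* and *Dlx5*) of the 6 were, where 10.6% and 29.0% of all genes were. *Sp7* had a median of 6.03 scaled TPM in wild-type females against 3.97 in wild-type males, while saline-treated females had 6.78 and saline-treated males 9.17. *Sp7* rose by 1.12 ± 0.147 (SE) in saline-treated males (limma adjusted p = 1.45e-05) and differed by 0.19 ± 0.156 (SE) in saline-treated females (adjusted p = 0.423).

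The difference between the sexes was tested as an interaction over all genes. Male minus female log2 fold changes of saline-treated against wild-type mice were 0.93 ± 0.217 (SE) for *Sp7* (limma adjusted p = 0.0407) and 0.54 ± 0.149 (SE) for *Runx2* (adjusted p = 0.0523). *Sp7* was thus the 1 gene of the 6 called, where 1.54% of all genes were. For ABE-treated against wild-type mice, 4 of the 6 were called, where 3.8% of all genes were: *Sp7* at 0.99 ± 0.217 (SE) (limma adjusted p = 0.0141), *Runx2* at 0.62 ± 0.149 (adjusted p = 0.0193), *Dlx5* at 0.70 ± 0.204 (adjusted p = 0.0477) and *Dlx3* at 0.83 ± 0.243 (adjusted p = 0.0483). In ABE-treated mice, the calls of *Sp7* and *Runx2* held whichever library was left out. That of *Dlx3* in ABE-treated mice was lost in 26 of 36 such fits and that of *Dlx5* in 27. The call of *Sp7* in saline-treated mice was lost in 14 of 36. Leaving out 1 library gave between 0 and 4 called genes for saline-treated and between 2 and 4 for ABE-treated mice, and a fit on the 2 compared groups alone gave 2 and 0.

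Osteocalcin followed the same direction with wider errors. *Bglap* had a median of 157 scaled TPM in wild-type females and 121 in wild-type males, 127 and 191 in saline-treated, and 139 and 234 in ABE-treated mice. In males it rose by 0.83 ± 0.308 (SE) in saline-treated (limma adjusted p = 0.0312) and by 0.82 ± 0.308 (SE) in ABE-treated mice (adjusted p = 0.0274). In females it differed by -0.57 ± 0.421 (SE) and -0.24 ± 0.421 (SE), and neither passed (adjusted p = 0.371 and 0.656). The interaction was 1.40 ± 0.530 (SE) for *Bglap* and 1.43 ± 0.465 (SE) for *Bglap2* in saline-treated mice, with limma adjusted p of 0.123 and 0.0822, so the sex difference of osteocalcin was not called. *Bglap3* rose in both sexes, by 1.61 ± 0.234 (SE) in saline-treated males and 1.10 ± 0.201 (SE) in saline-treated females (limma-voom adjusted p = 2.30e-05 and 0.0010), and its interaction was not called (adjusted p = 0.270).

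To compare the factors with osteocalcin, the ratio of *Bglap* to each factor was taken within every library. The scaling of a library cancels in the plain ratio, but not wholly in the tested one, to whose levels 0.5 was added. Differences of the log2 ratio were tested by permuting group labels within sex, 100000 times, two-sided, with adjustment over 15 tests. The ratio to *Dlx3* ranged from 65.4 to 147 (median 95.6) in wild-type mice, from 13.0 to 97.1 (median 50.4) with saline and from 37.1 to 82.2 (median 48.1) with ABE. It was lower by 0.87 on the log2 scale in saline-treated (permutation adjusted p = 0.0201) and by 0.67 in ABE-treated mice (permutation adjusted p = 0.00795). The ratio to *Sp7* ranged from 21.9 to 43.1 (median 27.6), from 6.51 to 39.5 (median 19.4) and from 13.7 to 31.2 (median 19.1). It was lower by 0.48 in ABE-treated mice (permutation adjusted p = 0.0197) and by 0.53 in saline-treated mice, which did not pass (permutation adjusted p = 0.119). With 1 added in place of 0.5, 0 of 5 ratios passed in either comparison with wild-type, and those of the 3 that had passed were -0.71, -0.52 and -0.43. Within 1 sex, exact permutation of 6 against 6 mice gave lower ratios to *Dlx3* and *Sp7* in each sex and called none after adjustment.

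**Figure D4:**
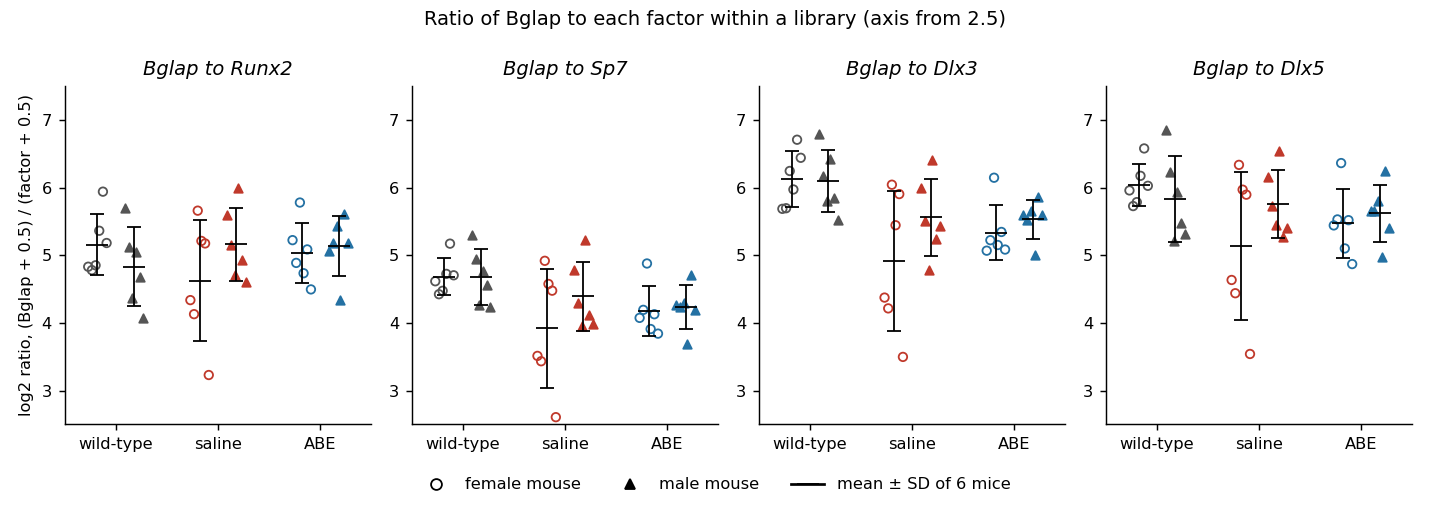
Log2 ratio of *Bglap* to each of 4 factors within a library, 1 point per mouse, by group and sex, with mean ± SD of 6 mice and an axis that starts at 2.5. Saline-treated females spread most, with F409439 lowest in every panel, and the ratios to *Sp7* and *Dlx3* are lower in both *LMNA* G/G groups than in wild-type.

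The ratio of *Bglap* to *Runx2* had medians of 35.3, 36.1 and 38.4 in the wild-type, saline and ABE groups and overlapped throughout, with differences from wild-type of -0.10 and 0.093 (permutation adjusted p = 0.814 for both). That to *Dlx5* had medians of 78.9, 55.8 and 53.4, and its log2 differences from wild-type, -0.49 and -0.39, did not pass (permutation adjusted p = 0.268 and 0.176). Ratios to *Msx2* carry no more than the level of *Bglap*, since 0.5 far exceeds every *Msx2* value. Between ABE-treated and saline-treated mice 0 of 5 ratios passed (0 at an unadjusted p under 0.05), with differences from 0.045 to 0.20. With *Bglap2* in place of *Bglap*, the ratio to *Dlx3* remained lower in both groups (permutation adjusted p = 0.0342 for each) and that to *Sp7* did not pass (adjusted p = 0.147 for each).

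Among mice of a group, osteocalcin and the factors varied together in part. Pearson's r was taken over the 12 mice of each group on log2(scaled TPM + 0.5), with a permutation p adjusted over 18 relations. The tightest relation to *Bglap* was *Bglap2*, with r of 0.995 in wild-type mice, 0.98 with saline and 0.91 with ABE (rho 0.97, 0.97 and 0.90), and the share of windows that the mRNAs have in common is given above. *Sp7* came next, with r of 0.91 in wild-type (permutation adjusted p = 0.000540, rho 0.77), 0.71 in saline-treated (adjusted p = 0.0168, rho 0.65) and 0.82 in ABE-treated mice (adjusted p = 0.00630, rho 0.82). Without the 2 mice farthest from the median of *Sp7*, these were 0.84, 0.43 and 0.79. *Runx2* had r of 0.79, 0.68 and 0.65, with permutation adjusted p of 0.00648, 0.0233 and 0.0372, and r of 0.76, 0.53 and 0.60 without the 2 mice farthest from its median. None of these passed by rho (0.62, 0.53 and 0.64, permutation adjusted p = 0.0618, 0.115 and 0.0570).

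*Dlx3* and *Dlx5* had relations to *Bglap* in wild-type mice that passed by r, and none in saline-treated mice. For *Dlx3*, r was 0.79 in wild-type (permutation adjusted p = 0.00648), 0.20 in saline-treated (adjusted p = 0.589) and 0.80 in ABE-treated mice (adjusted p = 0.00648). For *Dlx5*, it was 0.72 (adjusted p = 0.0168), 0.13 (adjusted p = 0.721) and 0.57 (adjusted p = 0.0650), and the difference of these correlations between groups was not tested. The wild-type relation of *Dlx5* did not pass by rho (0.55, adjusted p = 0.111), and r was 0.47 without the 2 mice farthest from the median of *Dlx5*. That of *Dlx3* did not pass by rho either (0.67, adjusted p = 0.0537). *Msx2* showed no relation that passed on scaled TPM, with r of 0.091, -0.40 and 0.32. In all, 12 of 18 relations passed by Pearson's r and 6 by Spearman's rho on scaled TPM. On TPM as deposited, 14 passed by r and 13 by rho. Among them was *Msx2* in ABE-treated mice (r = 0.77, permutation adjusted p = 0.00579, rho 0.65). With the mean of each sex subtracted, a setting chosen after the data were seen, 8 passed by r. Those of *Sp7* were then 0.92 in wild-type (permutation adjusted p = 0.000300), 0.59 in saline-treated (adjusted p = 0.110) and 0.77 in ABE-treated mice (adjusted p = 0.0180). *Runx2* passed in wild-type mice (r = 0.72, permutation adjusted p = 0.0317) but not with saline (0.54, adjusted p = 0.191) or ABE (0.52, adjusted p = 0.146), and *Dlx5* in wild-type mice no longer passed (0.62, adjusted p = 0.0830).

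**Figure D5:**
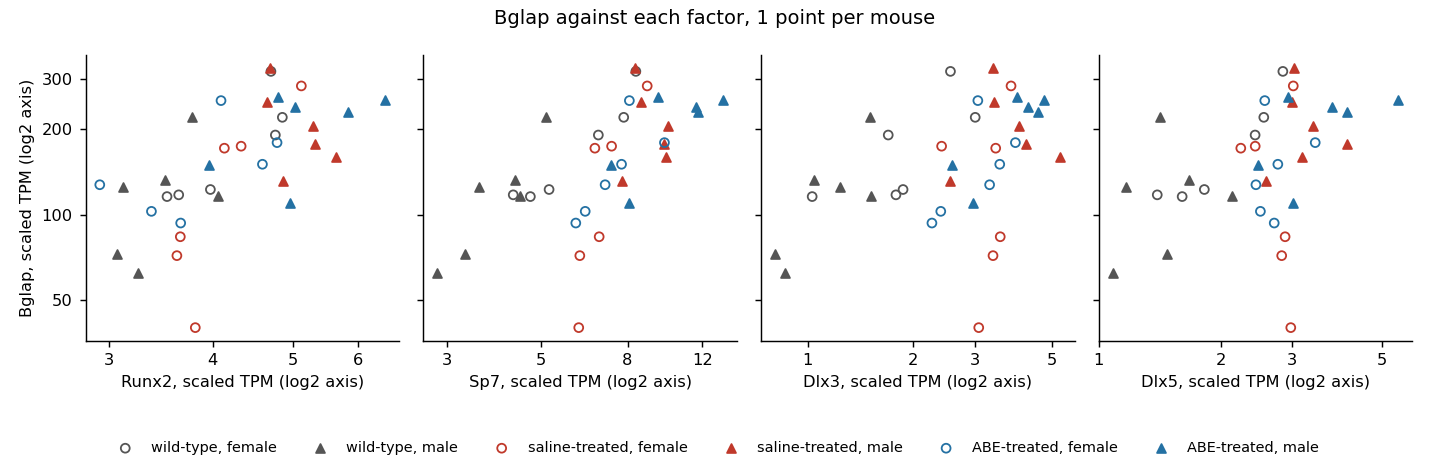
*Bglap* against each of 4 factors in scaled TPM, both on log2 axes, 1 point per mouse, coloured by group (grey wild-type, red saline-treated, blue ABE-treated) with open circles for females and triangles for males. Points of *Dlx3* and *Dlx5* from *LMNA* G/G mice lie to the right of most wild-type points at the same *Bglap*, and F409439 is the lowest point.

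After group and sex means were removed, the genes whose level followed *Runx2* most closely over the 36 libraries, among 3939 genes with a mean of at least 5 scaled TPM, were *Pth1r*, the parathyroid hormone receptor (r = 0.92), *Nrp2*, *Kirrel*, the small proteoglycan gene *Bgn* and the procollagen peptidase gene *Adamts2* (r between 0.91 and 0.92). Those most like *Sp7* were among others *Unc5b* (r = 0.97), *Ptprs*, *Nrp2* and *Bmp1* (r = 0.94). Those most like *Bglap* were *Bglap2* (r = 0.97), the type I collagen genes *Col1a2* (r = 0.97) and *Col1a1* (r = 0.96), and the fibrillar collagen genes *Col11a1* and *Col11a2* (both r = 0.95). By the same measure, pairs of the 4 tested factors had r from 0.74 (*Dlx3* and *Dlx5*) to 0.90 (*Runx2* and *Sp7*). Pairs of a factor with *Bglap* or *Bglap2* had r from 0.45 (*Dlx5* and *Bglap*) to 0.78 (*Sp7* and *Bglap2*), so the ranges overlapped.

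Partners and other regulators of osteoblast transcription, 20 genes of which 17 were tested, were called higher for 9 and lower for 0 in saline-treated against wild-type mice, with a median log2 fold change of 0.16 against 0.018 for all genes, of which 27.7% were called higher. *Mef2c* rose from 2.61 ± 0.736 (SD, n = 12) to 5.64 ± 1.55 scaled TPM (0.97 ± 0.151 SE on the log2 scale, limma adjusted p = 2.59e-06) and stood at 8.84 ± 2.90 in ABE-treated mice. *Zbtb16* rose from 2.91 ± 0.952 to 6.47 ± 2.74 (0.99 ± 0.194, limma adjusted p = 8.30e-05) and stood at 11.6 ± 5.67 in ABE-treated mice. Muscle also expresses *Mef2c*, and the muscle markers given at the end of this account moved the same way. *Junb*, an AP-1 factor, rose from 5.22 ± 0.859 to 9.41 ± 1.46 (0.79 ± 0.0937, limma adjusted p = 2.45e-08).

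Against saline-treated mice, ABE-treated mice had 7 of these 17 regulators higher and 4 lower, where 48.3% of all genes were called in either direction. *Hey1*, a Notch target, rose from 0.604 ± 0.0848 (SD, n = 12) to 0.974 ± 0.225 scaled TPM (0.40 ± 0.0754, limma adjusted p = 0.000403), and *Zfp521*, which binds *Runx2* and restrains it, from 1.63 ± 0.348 to 2.55 ± 0.569 (0.51 ± 0.107, limma adjusted p = 0.000797). *Junb* fell to 7.61 ± 2.02 (-0.31 ± 0.0937, limma adjusted p = 0.00763). Of 7 other distal-less and Msx homeobox genes only *Dlx6*, the neighbour of *Dlx5*, was expressed enough to be tested. It rose from 0.456 ± 0.152 in wild-type to 0.927 ± 0.238 with saline and 1.08 ± 0.270 with ABE (0.58 ± 0.0919 and 0.72 ± 0.0919, limma adjusted p = 4.22e-06 and 5.08e-08).

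Other products of the osteoblast lineage were also followed. Of 17 genes, all tested, 9 were called higher and 1 lower in saline-treated mice, with a median log2 fold change of 0.47, and 10 higher and 0 lower in ABE-treated mice, with a median of 0.68. Of all genes, 27.7% and 35.0% were called higher. The largest of the named ones was *Dmp1*, a matrix protein of osteocytes, which rose from 11.7 ± 5.93 (SD, n = 12) to 76.9 ± 18.7 scaled TPM (2.79 ± 0.212 SE, limma adjusted p = 2.82e-12). *Spp1* (osteopontin) rose from 58.1 ± 18.6 to 259 ± 90.3 (2.12 ± 0.193, limma adjusted p = 1.46e-10), and was lower in ABE-treated than in saline-treated mice at 141 ± 45.8 (-0.86 ± 0.193, limma adjusted p = 0.00129). *Mmp13*, a collagenase, followed the same course, from 15.1 ± 6.25 in wild-type mice to 60.8 ± 17.8 with saline and 34.4 ± 13.1 with ABE, and the last step was called (-0.84 ± 0.229, limma adjusted p = 0.00408). *Phex*, a phosphate-regulating endopeptidase, rose from 2.95 ± 1.44 to 9.57 ± 1.73, and *Tnfrsf11b* (osteoprotegerin) from 0.757 ± 0.186 to 2.37 ± 0.522 (limma adjusted p = 3.61e-10 and 6.71e-10). Against saline-treated mice, ABE-treated mice had 2 of the 17 products higher and 3 lower, where 48.3% of all genes were called in either direction. *Dmp1* and *Phex* also stand in the list of osteocyte markers.

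Genes of vitamin K dependent processing and osteocalcin handling were followed in a list of 12, of which 10 were tested. The list also holds genes that do not modify osteocalcin themselves, such as *Vdr*, *Rxra* and *Gas6*. In saline-treated mice 5 were called higher and 0 lower, where 27.7% of all genes were called higher and 52.4% in either direction. *Vdr*, the vitamin D receptor, rose from 1.90 ± 0.720 (SD, n = 12) to 4.31 ± 1.25 scaled TPM (1.02 ± 0.154 SE, limma adjusted p = 1.80e-06), its partner *Rxra* from 3.34 ± 0.669 to 4.46 ± 1.23 (0.35 ± 0.129, limma adjusted p = 0.0223), and *Gas6*, another vitamin K dependent protein, from 23.7 ± 5.70 to 38.2 ± 10.7 (0.67 ± 0.134, limma adjusted p = 0.000108). *Nqo1*, a quinone reductase, rose by 0.31 ± 0.0965 (limma adjusted p = 0.00843). *Ggcx*, the carboxylase that modifies osteocalcin, was at 2.53 ± 0.432 in wild-type and 2.32 ± 0.192 in saline-treated mice (limma adjusted p = 0.217). Against saline-treated mice, 4 of the 10 rose in ABE-treated mice, where 48.3% of all genes were called in either direction. Among them were *Ggcx*, which rose to 2.90 ± 0.328 (0.27 ± 0.0618, limma adjusted p = 0.00156) and *Ptprv*, an osteoblast phosphatase, which rose from 0.880 ± 0.248 to 1.28 ± 0.454 (0.34 ± 0.0945, limma adjusted p = 0.00430).

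Of 11 genes beside the cluster 6 were tested, with 1 called higher and 2 lower in saline-treated mice and 2 higher and 3 lower in ABE-treated mice. These shares are near the 52.4% and 70.2% of all genes called. *Cct3*, a chaperonin subunit, rose from 2.55 ± 0.259 (SD, n = 12) to 3.27 ± 0.251 scaled TPM, *Smg5* fell from 4.04 ± 0.239 to 3.37 ± 0.209 and *Sema4a* from 4.06 ± 0.834 to 2.80 ± 0.617 (limma adjusted p = 3.25e-06, 9.23e-06 and 0.00361). *Pmf1*, the next gene after *Bglap*, was at 2.49 ± 0.370 in wild-type and 2.5 ± 0.330 in saline-treated mice (limma adjusted p = 0.952), and fell to 1.86 ± 0.359 in ABE-treated mice (-0.35 ± 0.0784 against saline-treated, limma adjusted p = 0.00117). Mouse *Lmna* was at 9.63 ± 1.05 in wild-type mice, 10.9 ± 1.5 with saline and 11.5 ± 1.98 with ABE (against wild-type, limma adjusted p = 0.0741 and 0.00659), a gene to which reads of the human transgene may also have aligned.

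Markers of other cell types were counted beside these results. Against wild-type, 27.7% of all genes were called higher with saline and 35.0% with ABE. Calls in either direction made up 52.4% and 70.2% of all genes. Of 12 skeletal muscle markers, 9 were called higher with saline and 12 with ABE, and their summed level ranged from 228 to 3409 scaled TPM in wild-type mice, from 377 to 8899 with saline and from 1219 to 14503 with ABE. Osteocyte markers were higher for 6 of 6 tested in both, with sums from 10.8 to 50.2 in wild-type, from 174 to 499 in saline-treated and from 178 to 353 in ABE-treated mice. Chondrocyte markers were lower for 4 of 4 in both, with *Matn1* and *Matn3* under 0.05 scaled TPM in every *LMNA* G/G library, and B cell markers were lower for 7 and 8 of 8. Osteoclast markers were called higher for 8 of 8 in saline-treated and 5 of 8 in ABE-treated mice. Neutrophil markers were called higher for 3 of 9 and lower for 0 in saline-treated mice and lower for 2 in ABE-treated mice, erythroid markers lower for 2 and 6 of 8, endothelial markers higher for 3 and 5 of 6, and adipocyte markers higher for 1 and lower for 1 of 5 in saline-treated and lower for 3 in ABE-treated mice. Osteoblast markers, a list that holds 4 of the genes described here, were called higher for 3 of 9 in both comparisons and lower for 0. That share is near those of all genes called higher. With the muscle markers as a covariate, 3 of the 6 genes were called in each comparison with wild-type, where 7131 and 5380 of all 15933 genes were. With neutrophil, B cell and erythroid markers as covariates 2 were, *Dlx3* and *Dlx5*, where 4176 and 5997 of all genes were. The part of these other cells in the results was not otherwise tested.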

How the data were processed

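Tibial RNA of 36 mice was sequenced from stranded poly(A) libraries. The authors aligned paired reads to GRCm38 with STAR (2.73a in the submitters' processing notes), counted them on GENCODE M24 genes with QoRTs and deposited TPM; how TPM were calculated is not given in the sources used here. The GC share of each gene, a fraction deposited by the authors, was not used. Each TPM value was a whole number of reads over an effective length (gene length minus 218 bp), scaled per library. In all, 100% of values came out whole within 0.01, so reads were recovered. All 36 libraries were mapped to mice by column name, and none of 630 pairs were duplicates. For a repeated symbol the row with the highest mean was used.

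TPM were divided by median ratio factors over the 23632 genes above 0 in every library. The main test was limma with a trended prior on log2(scaled TPM + 0.5), over 15933 genes with a mean of at least 0.5, with sex as a covariate and all 36 libraries in 1 fit; a gene was called when its adjusted p (Benjamini-Hochberg) was under 0.05. A fold change on this scale understates that of low genes. Genes under that minimum were tested by limma-voom on recovered reads (mean of at least 10, 22955 genes). Ratios and correlations were tested by permutation, with 100000 resamples. Tests were checked on simulated data. Positions come from GENCODE vM21 and promoters from RefSeq. Intervals are at 95%. Each sample is a mouse, so p-values measure the spread between mice.

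Alternatives were a pseudocount of 0.1 or 1, no filter or one at 5 scaled TPM, TPM as deposited, quantile normalization, TPM rescaled without the shortest genes, limma-voom, no sex covariate, the compared groups only, each sex alone, muscle or blood cell markers as covariates, array weights and each library left out. The members and lists were chosen with earlier results of these data known. Beside the 8 genes, the text names from each list the 4 with the lowest adjusted p in saline-treated against wild-type and the 2 with the lowest among those called in ABE-treated against saline-treated mice, the 5 genes most like *Runx2*, *Sp7* and *Bglap*, and *Lmna*. Software was R 4.3.3, limma 3.58.1, Python 3.11.15, numpy 2.4.6, pandas 2.3.3 and scipy 1.17.1. Of the genes this rule names, 1 is not reported here. The human transgene was not analysed here.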

Additional observations from a re-analysis of the deposited data

Results flagged for a closer look

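For 5 values, the change from wild-type differed between males and females by the interaction test of limma over all genes. *Sp7* in saline-treated mice had a male minus female log2 fold change of 0.93 (adjusted p = 0.0407), with log2 fold changes of 1.12 in males and 0.19 in females fitted alone. In ABE-treated mice the interaction was 0.99 for *Sp7* (adjusted p = 0.0141), 0.62 for *Runx2* (0.0193), 0.70 for *Dlx5* (0.0477) and 0.83 for *Dlx3* (0.0483). Library factors ranged lower in ABE-treated females than in ABE-treated males, and their part was not tested. Both comparisons use the same 12 wild-type mice, whose females were higher than their males for each of the 4 factors (median *Runx2* 4.34 against 3.38, *Dlx3* 1.83 against 1.14, *Dlx5* 2.13 against 1.45 scaled TPM). Neutrophil markers also differed by sex in wild-type mice, with summed levels of 774 to 1513 in females and 1543 to 2529 in males, and their part in the sex difference was not tested alone. With neutrophil, B cell and erythroid markers as covariates, the interaction was called for 4 of 6 genes in each comparison, and for 1030 and 1352 of all 15933 genes, against 245 and 605 without them.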

How the results depend on the processing

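Depth does not limit the values of the 6 tested genes, which rest on at least 496 reads in any library, but does limit *Msx2* and *Bglap3*. No paired analysis was possible because the labels give no numbers that pair mice across groups. The setting with the mean of each sex subtracted was chosen after seeing the data. *Dlx3* was called against wild-type under every setting that tested it. Some of the settings below also changed the number of genes tested or of mice. The cause of the changes was not tested.

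The number of genes called with saline against wild-type (8341) was 13258 without a filter, 2060 with a filter at 5, 4761 on TPM as deposited (1035 higher and 3726 lower, against 4416 and 3925), 12832 by limma-voom, 3328 in females and 4176 with blood cell covariates. On TPM rescaled without the shortest genes, 1869 were higher and 6791 lower. For ABE-treated against wild-type mice (11189) it was 19277, 2624, 5380 with the muscle covariate and 5997 with blood cell covariates, and on TPM as deposited 1468 were higher and 9462 lower. For ABE-treated against saline-treated mice (7702) it was 1786 with a filter at 5, 3271 in males, 4842 in females, 1705 with the muscle covariate and 957 with blood cell covariates. On TPM as deposited the median log2 fold change of all genes was -0.13, -0.42 and -0.27 in the 3 comparisons. Values on that scale are relative to a library sum that lay mostly in the shortest genes, which held few of the reads.

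Of the 6 tested members, only 3 (*Sp7*, *Bglap* and *Bglap2*) were still tested with a filter at 5, and every count for that filter is out of these. Members called with saline against wild-type (4) were 1 with a filter at 5 and 2 on TPM as deposited. They were 1 in females and 2 with blood cell covariates. In ABE-treated against wild-type mice (3) they were 1 with a filter at 5, 1 on TPM as deposited, 6 in males and 5 with array weights, and 3 to 5 with a library left out. Sex differences were called in saline-treated mice (1) for 0 genes without a filter, with a filter at 5, on TPM as deposited, on TPM rescaled without the shortest genes and with the muscle covariate, for 2 by limma-voom and on the compared groups only, for 4 with blood cell covariates and 3 with array weights, and for 0 to 4 with a library left out. In ABE-treated mice (4) they were 2 without a filter, 1 with a filter at 5, 1 on TPM rescaled without the shortest genes, 0 on the compared groups only, 2 with array weights and 2 to 4 with a library left out.

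Called ratios of *Bglap* to a factor in saline-treated mice (1) were 0 with a pseudocount of 1 and in males or females alone, and 1 to 2 with a library left out. In ABE-treated mice (2) they were 0 under the same 3 settings and 1 with *Bglap2*.

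Directions turned only for values that had not passed, with 1 exception. That was *Runx2* in saline-treated against wild-type mice, at -0.039 in females. Against wild-type, ABE-treated mice had *Runx2* at -0.29 on TPM as deposited and -0.11 in females. *Bglap* in saline-treated mice was at -0.067 on TPM as deposited, -0.080 on TPM rescaled without the shortest genes and -0.57 in females, and in ABE-treated mice at -0.29, -0.24 in females and -0.032 with blood cell covariates. *Bglap2* was at -0.48 in saline-treated females and -0.066 in ABE-treated mice on TPM as deposited.

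Between ABE-treated and saline-treated mice, on TPM as deposited *Sp7* was at -0.23, *Dlx5* at -0.23, *Bglap* at -0.22 and *Bglap2* at -0.10. In males *Runx2* was at 0.014, *Dlx3* at 0.015, *Bglap* at -0.011 and *Msx2* at 0.026. With blood cell covariates *Sp7* was at -0.021, *Dlx5* at -0.10 and *Bglap* at -0.034, and with the muscle covariate *Dlx5* was at -0.062. With a library left out, *Runx2* ranged from -0.070 to 0.014, *Dlx3* from -0.080 to 0.016, *Dlx5* from -0.0034 to 0.10 and *Bglap* from -0.0035 to 0.26.

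The log2 ratio of *Bglap* to *Runx2* against wild-type was 0.33 in saline-treated males, 0.0057 with *Bglap2* and -0.12 in ABE-treated females, and ranged from -0.20 to 0.040 in saline-treated mice with a library left out. In males, ABE-treated minus saline-treated ratios were -0.025 to *Runx2*, -0.16 to *Sp7*, -0.025 to *Dlx3*, -0.14 to *Dlx5* and -0.012 to *Msx2*. Leaving out a library, that to *Sp7* ranged from -0.086 to 0.15 and that to *Dlx5* from -0.060 to 0.22. Ratios to *Msx2* against wild-type were -0.62 in saline-treated and -0.24 in ABE-treated females, and ranged from -0.034 to 0.25 in saline-treated mice with a library left out. The r of *Bglap* with *Msx2* in wild-type mice was -0.19 on TPM as deposited and -0.059 with sex means subtracted, and that with *Dlx5* in saline-treated mice was -0.18 with sex means subtracted.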
